A study of Rattus norvegicus with 21 samples.

Results

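Genes that mature beta cells are known to keep low were measured in cultured rat islets: the disallowed genes Ldha, Slc16a1, Hk1, Hk2, Rest, Acot7 and Oat, and the dedifferentiation genes Aldh1a3, Sox9 and Cd24. The genes were taken by symbol from the table of read counts. Of the 10 named, 9 had a row and Sox9 was not analysed here, and all 9 passed the filter on low counts that kept 12576 of 17025 genes. They were chosen by name, with earlier results of these data known, so nothing below is independent support for the choice.

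The 21 RNA libraries came from pancreatic islets of Sprague Dawley rats. There were 3 islet preparations, each a pool of 8 rats that was split between the culture groups, so a group held at most 1 library of a preparation. Glucolipotoxic (GLT) islets with cpd E had 300 nM of the compound in 27 mM glucose and 300 µM palmitate for 24 h (condition 8, 2 libraries, preparations 1 and 2) or 3 h (condition 7, 1 library, preparation 2). GLT islets with cpd D had the same medium with 300 nM of that compound for 24 h (condition 6) or 3 h (condition 5), and 24 h GLT islets had the medium alone (condition 4), with 3 libraries each. The 3 h control islets (condition 1, 3 libraries) had 11 mM glucose without palmitate. The structure and target of the compounds, known by code letter, are not stated in the sources used here. The 6 libraries of conditions 2 and 3 carry conflicting labels. Condition 2 is 24 h control in the sample records and 3 h GLT in the deposited sample sheet, and condition 3 is 3 h GLT in the records and 24 h control in the sheet. Both are therefore called by number, and comparisons without them are given first.

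A mature beta cell sends pyruvate to the mitochondria, so that insulin release follows blood glucose. Low-Km hexokinases (Hk1, Hk2) would let glycolysis run at low glucose. Lactate dehydrogenase A (Ldha) and the monocarboxylate transporter MCT1 (Slc16a1) would drain pyruvate to lactate or let circulating pyruvate and lactate into the cell. These genes are called disallowed because beta cells hold them far below the level of most tissues. Dedifferentiation is the loss of beta cell identity under chronic metabolic load, and Aldh1a3, a retinaldehyde dehydrogenase gene, is one of its best known marks in diabetic mouse islets.

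Libraries held 22.3 to 40.2 M counts in genes. Levels are given in CPM, counts per M counts in genes after TMM scaling of the library size, on which 1 count was worth 0.0268 to 0.0481 CPM. Islet markers were abundant: 7 beta cell markers summed to 79244 to 632892 CPM, insulin transcripts made up 9.32% to 45.9% of a library, and acinar markers summed to no more than 10.8 CPM. Libraries that stood apart were 24 h GLT with cpd E of preparation 1 (TMM factor 0.682, insulin share 42.6%), 24 h GLT with cpd D of preparation 2 (insulin share 43.3%, against 11.7% in preparation 1 of that group) and condition 3 of preparation 2, where 23.4% of reads had more than 1 alignment, against 4.92% to 8.51% elsewhere. The ribosomal precursor Rn45s took 0.0333% to 7.88% of a library. In preparation 1 it took 7.23% in 24 h GLT with cpd D, 7.88% in 3 h GLT with cpd D and 7.37% in 3 h control, against 2.38% in 24 h GLT with cpd E and 1.37% to 1.57% in 24 h GLT and conditions 2 and 3. Preparation 2 had no such split between cpd D and 24 h GLT (1.56% and 1.59% at 24 h), and the part of Rn45s in the results was not tested. Summed endothelial markers moved with the groups: they ran from 81.8 to 82.3 CPM in 24 h GLT with cpd E, 22.9 to 90.4 CPM in 24 h GLT with cpd D and 30.2 to 78.3 CPM in 24 h GLT, against 157 to 184 CPM in 3 h control. In 3 h GLT they ran from 142 to 175 CPM with cpd D and stood at 167 CPM with cpd E. Condition 2 had 170 to 195 CPM and condition 3 had 63.0 to 94.2 CPM. In bulk islets, fewer cells of a type and less RNA per cell cannot be told apart.

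The promoters of 3 of the genes are shown because the levels of Ldha and Cd24 moved together across the libraries, while that of Slc16a1, the lactate transporter gene that partners Ldha in the pathway, ran less closely with them (r = 0.390 with Ldha and 0.246 with Cd24, preparation means removed). Sequences are RefSeq's for the rat build GRCr8, 250 bases before to 50 bases after the start, all on the + strand, while the counts were made on rn5. Capitals mark each ACGTG on either strand, a form of the core letters of the hypoxia response element. As CACGTG these letters also form an E-box counted on both strands. Other forms of the core, such as GCGTG, were not searched or marked.
Ldha, chr1:106507842-106508141: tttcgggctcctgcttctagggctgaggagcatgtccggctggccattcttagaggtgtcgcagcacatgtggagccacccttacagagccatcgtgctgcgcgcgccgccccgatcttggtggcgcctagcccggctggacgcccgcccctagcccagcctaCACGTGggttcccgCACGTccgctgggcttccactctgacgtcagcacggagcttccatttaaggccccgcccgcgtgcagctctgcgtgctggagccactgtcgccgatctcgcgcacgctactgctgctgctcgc
Slc16a1, chr2:194812410-194812709: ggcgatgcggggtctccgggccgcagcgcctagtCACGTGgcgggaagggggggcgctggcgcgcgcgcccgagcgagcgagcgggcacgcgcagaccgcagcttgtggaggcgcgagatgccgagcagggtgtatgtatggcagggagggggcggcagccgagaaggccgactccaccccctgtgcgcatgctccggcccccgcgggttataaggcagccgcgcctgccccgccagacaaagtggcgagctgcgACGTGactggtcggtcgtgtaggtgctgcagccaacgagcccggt
Cd24, chr20:48656227-48656526: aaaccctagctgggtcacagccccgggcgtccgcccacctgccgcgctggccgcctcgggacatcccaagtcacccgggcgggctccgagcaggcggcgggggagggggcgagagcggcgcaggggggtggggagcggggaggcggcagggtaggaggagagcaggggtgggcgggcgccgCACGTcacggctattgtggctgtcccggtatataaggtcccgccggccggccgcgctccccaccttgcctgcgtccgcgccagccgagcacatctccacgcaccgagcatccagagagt
The Ldha window held 3 matches, at -87 and -86 (the 2 strands of a CACGTG) and at -73, and 1 TGACGTCA, the cAMP response element, at -51. The Slc16a1 window held 3, at -216 and -215 (again a CACGTG) and at 6. The Cd24 window held 1, at -69. Oat had 1 match at -20 and Hk1 had 1 at -245 in 1 of its 2 windows, while the windows of Hk2, Rest, Acot7 and Aldh1a3 held no ACGTG. Of 33469 rat promoter windows of this length, 19.3% held ACGTG, 6.42% held CACGTG and 1.83% held TGACGTCA. The matches are letters in a window and do not show that a factor binds there.

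Across the whole set, Cd24, Ldha and Slc16a1 rose in 24 h GLT islets against 3 h controls, and Cd24 and Slc16a1 fell when cpd D was added to 24 h GLT. Hk1 and Oat passed in other comparisons, and Hk2, Rest, Acot7 and Aldh1a3 passed in none. Counts below are of the 9 genes that passed edgeR's quasi-likelihood test at a Benjamini-Hochberg adjusted p under 0.05, with a term for preparation and the adjustment over all 12576 genes. In 24 h GLT with cpd D against 24 h GLT, 0 rose and 2 fell, where 4.08% of all genes passed (1.96% higher and 2.12% lower). In 24 h GLT against 3 h control, a comparison of a group with both a longer culture and GLT that was added after the data were seen, 3 rose and 0 fell, where 8.26% of all genes passed (4.14% higher and 4.12% lower). In 24 h GLT with cpd D against 3 h GLT with cpd D, 1 rose and 1 fell, where 6.11% passed (3.07% higher and 3.05% lower). In 3 h GLT with cpd D against 3 h control none of the 9 passed, where 0.103% of all genes did (13 genes, 817 at an unadjusted p under 0.05 and 110 by DESeq2). Nor did any pass in 24 h GLT with cpd E against 24 h GLT, where 0% of all genes passed by edgeR, 0 by DESeq2 and 813 at an unadjusted p under 0.05. For 24 h GLT with cpd E against 24 h GLT with cpd D, edgeR passed 0 of the 9 and 3.01% of all genes.

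The counts that use the disputed libraries depended on the reading. With condition 4 against condition 2 (24 h GLT against 24 h control by the record) 2 genes rose and 2 fell, where 8.52% of all genes passed (3.63% higher and 4.89% lower). With condition 4 against condition 3 (24 h GLT against 24 h control by the sheet) 1 rose and 0 fell, where 5.97% passed (3.31% higher and 2.66% lower). In condition 3 against condition 1, 1 rose (0.692% of all genes passed, 0.254% higher and 0.437% lower), and in condition 2 against condition 1, 0 passed (2.31%). Condition 5 against condition 3 gave 1 that fell (6.93%, with 3.99% higher and 2.94% lower), and condition 5 against condition 2 gave 0 (0.493%). Condition 6 against condition 2 gave 1 that rose and 3 that fell (12.5%, with 5.93% higher and 6.6% lower), and condition 6 against condition 3 gave 0 (0.716%). The 2 comparisons with condition 6 were added after the data were seen. The GLT effect at 24 h minus that at 3 h does not depend on the reading, and 0 of the 9 passed, where 0.0716% of all genes did (9 genes, 1050 at an unadjusted p under 0.05). These comparisons share condition libraries with each other, so their values are not independent.

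**Figure D1:**
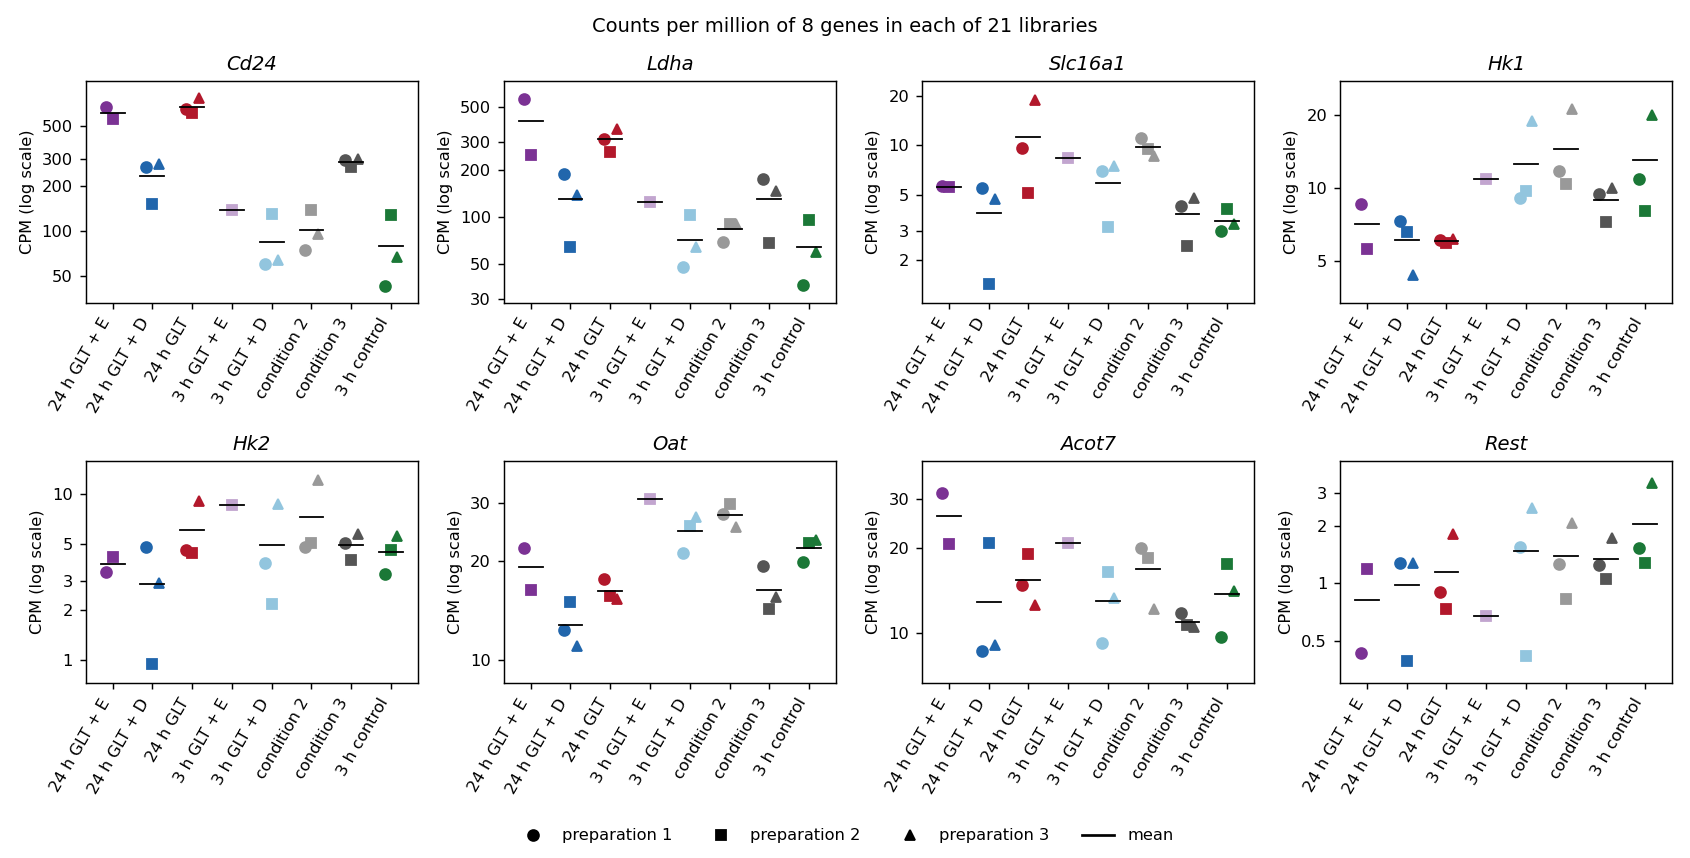
CPM on log axes of 8 of the 9 genes (Aldh1a3, at or near 0, is left out) in each of the 21 libraries, by condition, with 1 point per library, its shape for the preparation, and a bar for the mean. Cd24 lies between 554 and 769 CPM in 24 h GLT with and without cpd E, above all other libraries, and Rest stays at or under 3.38 CPM.

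Ldha encodes the subunit of lactate dehydrogenase that favours lactate formation. It stood at 564 and 247 CPM in 24 h GLT with cpd E and at 187, 64.0 and 137 CPM in 24 h GLT with cpd D (preparations 1 to 3), against 312, 258 and 364 CPM in 24 h GLT. Every cpd D library lay below every 24 h GLT library, while 1 cpd E library lay above and 1 below them. The difference of cpd D from 24 h GLT did not pass (log2 fold change -1.29, SE 0.46, adjusted p = 0.155), nor did that of cpd E (0.39, SE 0.52, 95% interval -0.63 to 1.41). The fold of cpd E over cpd D was 3.20, higher in both preparations compared (log2 1.68, SE 0.51, adjusted p = 0.0949 by edgeR and 0.0242 by DESeq2). Without the cpd E library of preparation 1, which stood apart, the value against cpd D was 0.96 (adjusted p = 0.660) and that against 24 h GLT was -0.30, below 0. Without that of preparation 2 the value against cpd D was 2.16 (adjusted p = 0.0209).

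At 3 h, Ldha had 47.8, 103 and 64.2 CPM in GLT with cpd D, against 36.7, 95.9 and 59.2 CPM in control. It was higher by a small margin in 3 of 3 preparations, without passing (0.16, SE 0.46). Against these 3 h controls the 24 h GLT libraries were 4.73-fold higher (2.24, SE 0.48, adjusted p = 0.0115), with no overlap between groups. The call was lost without the 3 h control of preparation 1 (adjusted p = 0.0559) or of preparation 3 (adjusted p = 0.0591), and without all of preparation 1 or 3 (0.134 and 0.246).

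The disputed libraries split for Ldha. It had 69.0, 90.1 and 90.2 CPM in condition 2 and 174, 68.2 and 146 CPM in condition 3, where the low value is that of preparation 2. The 24 h GLT libraries stood 3.70-fold above condition 2 (1.89, SE 0.47, adjusted p = 0.0244) and 2.43-fold above condition 3 (1.28, SE 0.46, adjusted p = 0.119). In this edgeR fit the call for 24 h GLT therefore holds under the record's label only. The value over condition 3 passed in 2 of 16 alternatives. These were DESeq2 (1.29, adjusted p = 0.0491) and the fit without all of preparation 2 (1.07, adjusted p = 0.0435). Removing any 1 library of condition 4 or condition 2 ended the call over condition 2 (adjusted p 0.0578 to 0.118). The cpd D libraries at 24 h and condition 3 had a fitted log2 difference of -0.01 (SE 0.46, 95% interval -0.90 to 0.89). Without the condition 3 library of preparation 2, which stood apart, that difference was -0.31 and 24 h GLT was 0.96 above condition 3 (adjusted p = 0.359). Rats carry many Ldha pseudogenes, and the part played by reads with more than 1 alignment, which the authors' counting left out of genes, was not tested.

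Ldhb, the subunit gene that favours pyruvate formation and no member of the set, moved in a different pattern. It averaged 57.3 ± 3.52 CPM in 24 h GLT with cpd E (SD, n = 2) and 22.5 ± 6.67 CPM in 24 h GLT with cpd D, against 49.2 ± 5.20 CPM in 24 h GLT (SD, n = 3 each). It fell with cpd D (-1.16, SE 0.26, adjusted p = 0.0225) and was higher with cpd E than with cpd D (1.39, SE 0.29, adjusted p = 0.0175). At 3 h it averaged 46.7 ± 14.7 CPM in GLT with cpd D, against 20.7 ± 9.58 CPM in control. It stood at 88.0 ± 12.7 CPM in condition 2 and 20.2 ± 1.09 CPM in condition 3, and rose in condition 2 against 3 h control (2.14, SE 0.27, adjusted p = 0.000442).

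The ratio of Ldha to Ldhb counts within a library is free of the scaling between libraries. It was 10.3 and 4.13 in 24 h GLT with cpd E, 12.5, 2.32 and 5.47 in 24 h GLT with cpd D and 6.37, 4.73 and 8.25 in 24 h GLT, so these groups overlapped. At 3 h it was 1.30, 2.58 and 1.01 in GLT with cpd D, against 2.75, 3.04 and 3.41 in control. Condition 2 had 0.762, 0.908 and 1.22, which overlapped 1 library of 3 h GLT with cpd D and no other, and condition 3 had 8.94, 3.18 and 7.45. The ratio is not corrected for transcript length, so its size has no meaning beyond comparison between libraries, and it was not tested.

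**Figure D2:**
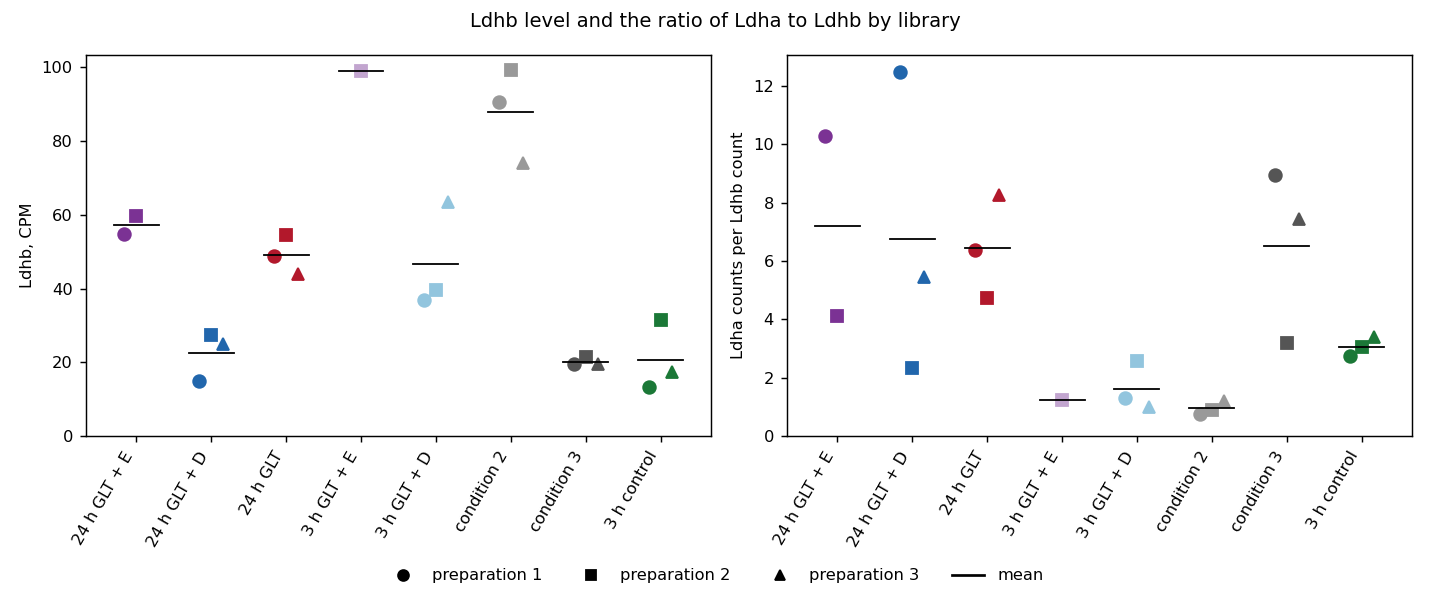
Ldhb level in CPM (left) and the ratio of Ldha counts to Ldhb counts (right) in each library, by condition, with 1 point per library, its shape for the preparation, a bar for the mean and linear axes from 0. The ratio lies between 0.762 and 1.22 in condition 2 and between 3.18 and 8.94 in condition 3.

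Slc16a1 encodes MCT1, which carries lactate and pyruvate across the plasma membrane, and it was a low gene. It had 5.62 and 5.57 CPM in 24 h GLT with cpd E and 5.52, 1.43 and 4.69 CPM in 24 h GLT with cpd D, against 9.57, 5.10 and 18.9 CPM in 24 h GLT. It was lower with cpd D in 3 of 3 preparations, although 1 cpd D library lay above the lowest 24 h GLT library. The fall passed narrowly, by 2.83-fold (-1.50, SE 0.40, adjusted p = 0.0482), and cpd E gave a value without a call (-0.68, SE 0.46, 95% interval -1.58 to 0.21). The call for cpd D passed in 5 of 16 alternatives: it was lost without the block for preparation (-1.52, adjusted p = 0.131) and without the cpd D library of preparation 2 (-1.19, adjusted p = 0.200), and without the 24 h GLT library of preparation 3 the value was -1.04 (adjusted p = 0.246). It was also lost without the 24 h GLT library of preparation 1 or 2 (adjusted p = 0.112 and 0.0669), and without the cpd D library of preparation 3 (0.0981). The direct difference of cpd E from cpd D was 0.82 (SE 0.45, 95% interval -0.06 to 1.70).

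Slc16a1 had 6.94, 3.18 and 7.48 CPM in 3 h GLT with cpd D, against 3.01, 4.09 and 3.32 CPM in 3 h control. It was 11.1, 9.49 and 8.65 CPM in condition 2, all above the 3 h controls, and 4.26, 2.43 and 4.75 CPM in condition 3. Condition 2 against 3 h control did not pass (1.46, SE 0.40, adjusted p = 0.0781), though the groups did not overlap. It passed in 4 of 16 alternatives. These were DESeq2 (adjusted p = 0.0121) and edgeR with only the groups compared (0.00697), without all of preparation 2 (0.0180) or without its 3 h control (0.0244). The 24 h GLT libraries rose over 3 h control by 2.84-fold (1.50, SE 0.40, adjusted p = 0.0325) and over condition 3 by 2.80-fold (1.48, SE 0.40, adjusted p = 0.0415). Without the block for preparation these were adjusted p = 0.0547 and 0.0968. Against condition 2 the value was 0.04 (SE 0.39, 95% interval -0.72 to 0.81). So in the edgeR fit the call for Slc16a1 under 24 h GLT holds with the sheet's label only. The edgeR call for Ldha held with the record's label only, though Ldha was higher under both readings (1.89 and 1.28). The call over 3 h control was lost without the 3 h control of preparation 1 or 3 (adjusted p = 0.134 and 0.156), and without the 24 h GLT library of preparation 1 or 3 (0.0663 and 0.187). That over condition 3 was lost with any 1 of the 6 libraries left out (adjusted p 0.0518 to 0.217). With condition 6 against condition 2 it fell 2.75-fold (-1.46, SE 0.40, adjusted p = 0.0266), a call lost without the block (0.101), without the condition 2 library of preparation 1 or 2 (0.0894 and 0.112) or without the condition 6 library of preparation 2 or 3 (0.105 and 0.0762).

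The 14 other genes listed for hexokinases, lactate dehydrogenases and monocarboxylate transport gave few calls. Of 11 tested, 0 rose and 1, Ldhb, fell with cpd D at 24 h (median log2 fold change -0.28, against 0.01 over all genes). In 24 h GLT against condition 2, Ldhd, the D-lactate dehydrogenase gene, rose (0.97, SE 0.27, adjusted p = 0.0389).

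Hk1, the widespread low-Km hexokinase gene, had 8.56 and 5.60 CPM in 24 h GLT with cpd E and 7.27, 6.61 and 4.37 CPM in 24 h GLT with cpd D, against 6.11, 5.95 and 6.15 CPM in 24 h GLT. These 8 libraries overlapped, and the difference of cpd D was 0.04 (SE 0.31, 95% interval -0.56 to 0.64). The 3 h groups were higher: 9.08, 9.70 and 18.8 CPM in GLT with cpd D, against 10.8, 8.04 and 19.96 CPM in control. Condition 2 had 11.7, 10.3 and 21.1 CPM and condition 3 had 9.46, 7.21 and 10.01 CPM. The 24 h GLT libraries all lay below the 3 h controls without passing by edgeR (-1.0, SE 0.31, adjusted p = 0.0559, and 0.0199 by DESeq2). They fell against condition 2 by 2.26-fold (-1.17, SE 0.31, adjusted p = 0.0293). That call passed in 6 of 16 alternatives and was lost without the block (adjusted p = 0.0604) or without any 1 library of the 2 conditions (0.0598 to 0.154). Condition 6 against condition 2 also fell (-1.14, SE 0.31, adjusted p = 0.0251), a call lost without any 1 of the condition 2 libraries (0.0566 to 0.111) or the condition 6 library of preparation 3 (0.0965). Over time with cpd D, 24 h against 3 h, Hk1 was lower in 3 of 3 preparations and did not pass by edgeR (-0.94, SE 0.31, adjusted p = 0.0852, and 0.0328 by DESeq2). The summed endothelial markers were likewise lower in the 24 h GLT groups than in 3 h control and 3 h GLT with cpd D. Their part in the Hk1 values was not tested.

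Hk2, the insulin-responsive hexokinase gene of muscle and fat, had 3.41 and 4.17 CPM in 24 h GLT with cpd E and 4.83, 0.950 and 2.92 CPM in 24 h GLT with cpd D, against 4.64, 4.44 and 9.14 CPM in 24 h GLT. It passed in no comparison as fitted over all libraries. The value with cpd D against 24 h GLT was -1.01 (SE 0.43, adjusted p = 0.238), with 1 of 3 preparations the other way. Without the cpd D library of preparation 1 it was -1.87 (adjusted p = 0.0192). Without that library Hk2 also passed for cpd D at 24 h against 3 h (-1.47, adjusted p = 0.0411, against -0.62 with it) and for condition 6 against condition 2 (-2.10, adjusted p = 0.00352, against -1.25 with it). The last of these values also passed with all libraries by DESeq2 (adjusted p = 0.0279) and by edgeR without all of preparation 1 (0.0360). Its lowest library was the cpd D library of preparation 2, with 22 counts. In 3 h GLT with cpd D it had 3.86, 2.18 and 8.69 CPM, against 3.30, 4.61 and 5.58 CPM in 3 h control. Condition 2 had 4.80, 5.08 and 12.1 CPM and condition 3 had 5.08, 4.03 and 5.79 CPM.

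Oat encodes ornithine aminotransferase, a mitochondrial enzyme that links ornithine to glutamate and proline. With cpd D it had 12.3, 15.0 and 11.1 CPM at 24 h and 21.1, 25.6 and 27.3 CPM at 3 h, and the groups did not overlap. It fell 1.93-fold (-0.95, SE 0.17, adjusted p = 0.00651), a call kept in 14 of 16 alternatives and lost without preparation 1 or 3 (adjusted p = 0.103 and 0.180). Oat had 21.9 and 16.4 CPM in 24 h GLT with cpd E and 17.7, 15.7 and 15.3 CPM in 24 h GLT, against 19.9, 22.7 and 23.2 CPM in 3 h control. All 24 h GLT libraries lay below all 3 h controls without passing (-0.44, SE 0.17, adjusted p = 0.136).

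In condition 2 Oat had 27.7, 29.7 and 25.4 CPM, and in condition 3 it had 19.2, 14.3 and 15.5 CPM. The 24 h GLT libraries fell against condition 2 by 1.70-fold (-0.77, SE 0.17, adjusted p = 0.0159) and differed from condition 3 by -0.01 (SE 0.17, 95% interval -0.35 to 0.33). The first of these calls passed in 7 of 16 alternatives. It was lost without the condition 2 library of preparation 1 or 2 (adjusted p = 0.0617 for each) and without the 24 h GLT library of preparation 1, 2 or 3 (0.0508, 0.0688 and 0.0742). Condition 6 against condition 2 gave the firmest Oat difference, a fall of 2.16-fold that passed in 16 of 16 alternatives (-1.11, SE 0.17, adjusted p = 0.000984). Summed endothelial markers stood at 170 to 195 CPM in condition 2 and 63.0 to 94.2 CPM in condition 3, and their part in the Oat values was not tested.

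Among 14 other enzymes of ornithine, proline and glutamate metabolism tested, 0 rose and 2 fell with cpd D at 24 h (median log2 fold change 0.01, against 0.01 over all genes). Ass1, the argininosuccinate synthase gene, averaged 13.9 ± 5.19 CPM with cpd D, against 64.4 ± 13.5 CPM in 24 h GLT (-2.21, SE 0.32, adjusted p = 0.00199). Odc1, the ornithine decarboxylase gene of polyamine synthesis, averaged 261 ± 130 CPM, against 534 ± 120 CPM (-1.09, SE 0.23, adjusted p = 0.0178). Both were higher with cpd E than with cpd D (2.22, SE 0.35, adjusted p = 0.00348 for Ass1 and 1.21, SE 0.26, adjusted p = 0.0210 for Odc1).

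Acot7, an acyl-CoA thioesterase gene best known from brain, had 31.3 and 20.6 CPM in 24 h GLT with cpd E and 8.62, 20.8 and 9.06 CPM in 24 h GLT with cpd D, against 14.7, 19.1 and 12.5 CPM in 24 h GLT. Both cpd E libraries lay above all 24 h GLT libraries, without passing (0.72, SE 0.34, 95% interval 0.06 to 1.38, adjusted p = 0.566). The value was 0.09 without the cpd E library of preparation 1, which stood apart, and 1.20 without that of preparation 2 (adjusted p = 0.0324). Against cpd D, cpd E was higher in 1 of 2 preparations (1.04, SE 0.34, adjusted p = 0.117 by edgeR and 0.0468 by DESeq2). That value was 0.43 without the cpd E library of preparation 1 (adjusted p = 0.765) and 1.53 without that of preparation 2 (0.0140), and 1.40 without the cpd D library of preparation 2 (0.0391). In 3 h GLT with cpd D it had 9.21, 16.4 and 13.3 CPM, against 9.67, 17.5 and 14.1 CPM in 3 h control. Condition 2 had 19.9, 18.5 and 12.2 CPM and condition 3 had 11.7, 10.7 and 10.5 CPM.

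Of 7 other acyl-CoA thioesterase genes tested, Acot2, which encodes a mitochondrial member, had the firmest differences. It averaged 47.1 ± 10.4 CPM in 24 h GLT with cpd E (SD, n = 2) and 12.2 ± 2.32 CPM in 24 h GLT with cpd D, against 47.7 ± 7.11 CPM in 24 h GLT (SD, n = 3 each). It was the 1 gene of this list that fell with cpd D (-2.0, SE 0.22, adjusted p = 0.00022), and it was higher with cpd E than with cpd D (1.86, SE 0.24, adjusted p = 0.00143). Against 24 h GLT the value for cpd E was -0.14, without a call. At 3 h it averaged 11.8 ± 2.49 CPM in GLT with cpd D, against 9.41 ± 2.38 CPM in control. Condition 2 averaged 32.2 ± 8.37 CPM and condition 3 averaged 10.9 ± 2.10 CPM.

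Rest encodes the repressor REST, which keeps neuronal and secretory genes off in other tissues and is scarce in mature beta cells. It stayed between 0.389 and 3.38 CPM (9 to 115 counts). It had 0.433 and 1.20 CPM in 24 h GLT with cpd E and 1.28, 0.389 and 1.29 CPM in 24 h GLT with cpd D, against 0.905, 0.734 and 1.81 CPM in 24 h GLT. Rest passed in no comparison, and the interval for cpd D against 24 h GLT ran from -1.07 to 0.69. In 24 h GLT it lay below 3 h control in 3 of 3 preparations (-0.82, SE 0.43, adjusted p = 0.277), where 3 h GLT with cpd D had 1.56, 0.417 and 2.49 CPM, against 1.54, 1.28 and 3.38 CPM in 3 h control. Condition 2 had 1.27, 0.833 and 2.07 CPM and condition 3 had 1.25, 1.05 and 1.73 CPM.

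Of 8 genes of REST corepressors, 0 passed with cpd D at 24 h (median 0.15, against 0.01 over all genes). Of 13 genes known for REST binding elements, 0 rose and 1 fell: Syt4, a synaptotagmin gene of secretory vesicles (-0.74, SE 0.19, adjusted p = 0.0381). Scg2, the secretogranin II gene, was the 1 that fell in 24 h GLT against 3 h control (-0.90, SE 0.18, adjusted p = 0.00831). It also fell over time with cpd D (-0.78, SE 0.18, adjusted p = 0.0203).

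Cd24 encodes a small glycosylphosphatidylinositol-anchored sialoglycoprotein of the cell surface, found on progenitor and epithelial cells of the pancreas. It had 674 and 554 CPM in 24 h GLT with cpd E and 266, 152 and 279.6 CPM in 24 h GLT with cpd D, against 645, 611 and 769 CPM in 24 h GLT. No cpd D library reached the others, and the cpd E libraries overlapped those of 24 h GLT. It fell with cpd D by 2.85-fold (-1.51, SE 0.36, adjusted p = 0.0315), and the value for cpd E was -0.12 (SE 0.41, 95% interval -0.92 to 0.67). The direct difference of cpd E from cpd D was 2.62-fold, higher in both preparations, and did not pass (1.39, SE 0.40, adjusted p = 0.0783 by edgeR and 0.0187 by DESeq2). It was 0.95 without the cpd E library of preparation 1 (adjusted p = 0.550) and 1.72 without that of preparation 2 (0.0225). The call for cpd D against 24 h GLT passed in 7 of 16 alternatives. It was lost without the 24 h GLT library of preparation 1, 2 or 3 (adjusted p = 0.124, 0.0619 and 0.117) and without the cpd D library of preparation 1 or 2 (0.0516 and 0.140). It was also lost without all of preparation 1 or 3 (0.212 and 0.221).

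At 3 h Cd24 had 59.6, 129 and 63.8 CPM in GLT with cpd D, against 42.7, 127 and 66.8 CPM in control, and the groups overlapped (0.11, SE 0.36). The 24 h GLT libraries stood 8.97-fold above 3 h control (3.17, SE 0.39, adjusted p = 0.000398), a call kept in 15 of 16 alternatives and lost without preparation 1 (adjusted p = 0.0727). With cpd D, 24 h was 2.92-fold above 3 h (1.55, SE 0.37, adjusted p = 0.0234), in 3 of 3 preparations. That call was lost without the 24 h library of preparation 1 or 3 (adjusted p = 0.0859 and 0.0708) or the 3 h library of preparation 1 or 3 (0.128 and 0.136).

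Cd24 set the disputed conditions apart with no overlap: 73.7, 137 and 94.3 CPM in condition 2 and 296, 268 and 300.2 CPM in condition 3. The 24 h GLT libraries lay 6.84-fold above condition 2 (2.77, SE 0.38, adjusted p = 0.00085) and 2.34-fold above condition 3 (1.23, SE 0.36, adjusted p = 0.0592), higher in 3 of 3 preparations in each. The value over condition 3 passed in 3 of 16 alternatives. These were DESeq2 (adjusted p = 0.0131), edgeR with only the groups compared (0.0357) and edgeR without all of preparation 2 (0.00591). The call over condition 2 was lost without all of preparation 1 or 3 (adjusted p = 0.0824 and 0.0684). Condition 3 itself rose 3.83-fold over 3 h control (1.94, SE 0.37, adjusted p = 0.029), and condition 5 fell 3.56-fold against condition 3 (-1.83, SE 0.37, adjusted p = 0.0111). The first of these calls was lost without the 3 h control of preparation 1 or 3 (adjusted p = 0.112 and 0.102) and without the condition 3 library of preparation 1, 2 or 3 (0.0925, 0.0609 and 0.0881). The second was lost without the condition 5 library of preparation 1 or 3 (0.0673 and 0.0637). Without the block the first had an adjusted p of 0.0549. Condition 6 was 2.40-fold above condition 2 (1.26, SE 0.36, adjusted p = 0.0342), lost without any 1 library of condition 2 (0.0588 to 0.153), without the condition 6 library of preparation 1 or 3 (0.123 and 0.120) and without the block (0.0558). It had a value of -0.29 against condition 3 (SE 0.36, 95% interval -0.98 to 0.41).

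Cd24 is also known from duct cells, so the other 9 duct markers listed were read beside it. The 7 with a row summed to 24.7 to 29.8 CPM in 24 h GLT with cpd E, 28.8 to 39.6 CPM in 24 h GLT with cpd D and 21.9 to 47.4 CPM in 24 h GLT, against 45.0 to 274 CPM in 3 h control. The ranges of 24 h GLT and 3 h control overlapped. In 3 h GLT they summed to 38.4 to 94.0 CPM with cpd D and 63.2 CPM with cpd E. Condition 2 had 43.5 to 91.5 CPM and condition 3 had 32.7 to 73.4 CPM. The part of duct cells in the Cd24 values was not tested. Krt19, the duct keratin gene, ran from 2.98 to 205 CPM and Spp1, the osteopontin gene, from 3.75 to 54.2 CPM, while Cftr, Onecut1 and Muc1 stayed under 1 CPM in all libraries.

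**Figure D3:**
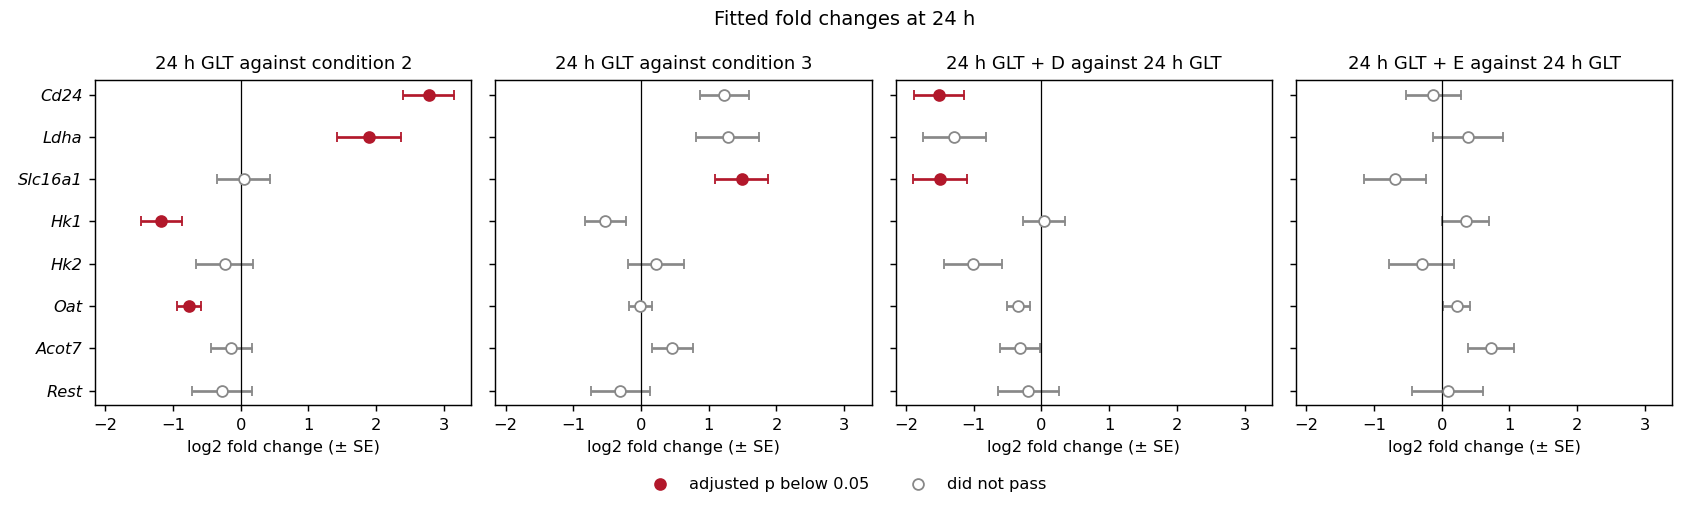
Fitted log2 fold changes of 8 of the 9 genes (Aldh1a3, near the limit of detection, is left out) in 4 comparisons at 24 h, with bars of 1 SE and filled points for an adjusted p under 0.05 (edgeR). Cd24 and Ldha lie above 0 in 24 h GLT against either disputed condition and below 0 with cpd D, where Ldha did not pass, and no point is filled for cpd E.

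Aldh1a3, the retinaldehyde dehydrogenase gene that marks dedifferentiated beta cells in diabetic mice, was near the limit of detection. Its 21 libraries held 99 counts in all, 0 to 31 each. It had 0 and 0.0342 CPM in 24 h GLT with cpd E and 0.313, 0 and 0.0268 CPM in 24 h GLT with cpd D, against 0.0377, 0.116 and 0 CPM in 24 h GLT. The highest group was 3 h control with 0.314, 0.146 and 0.910 CPM, where 3 h GLT with cpd D had 0.203, 0.0321 and 0.249 CPM. Condition 2 had 0.0436, 0.0416 and 0.173 CPM and condition 3 had 0.391, 0.120 and 0.0333 CPM. All 3 of the 24 h GLT libraries lay below the 3 h controls, without passing (-2.98, SE 1.17, adjusted p = 0.135). Aldh1a3 passed in no comparison, and the 95% interval for cpd D against 24 h GLT was wide (-1.70 to 3.58).

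Of 11 other retinaldehyde dehydrogenase and retinoic acid genes tested, 1 rose and 0 fell with cpd D at 24 h. Aldh1a1, a related dehydrogenase gene, averaged 3.06 ± 0.523 CPM with cpd D, against 0.605 ± 0.130 CPM in 24 h GLT (2.32, SE 0.54, adjusted p = 0.0267). It averaged 0.789 ± 0.584 CPM with cpd E (n = 2). Aldh1a2 rose over time with cpd D (1.22, SE 0.33, adjusted p = 0.0443), as did Dhrs3, a retinaldehyde reductase gene (1.29, SE 0.32, adjusted p = 0.0273).

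Of 20 other disallowed genes tested, 0 rose and 1 fell with cpd D at 24 h (median -0.15, against 0.01 over all genes): Igfbp4, which encodes a binding protein of insulin-like growth factors, averaged 53.1 ± 17.3 CPM with cpd D, against 117 ± 18.8 CPM in 24 h GLT (-1.16, SE 0.26, adjusted p = 0.0224). Igfbp4 was the 1 that was higher with cpd E than with cpd D (1.37, SE 0.28, adjusted p = 0.0174). In 24 h GLT against 3 h control 0 of the 20 passed (median 0.03, against -0.02 over all genes). In condition 5 against condition 3, 6 of the 20 fell (median -0.76), where 2.94% of all genes did, Bgn, the biglycan gene (-0.97, SE 0.20, adjusted p = 0.0121), and Cxcl12, the chemokine gene (-1.57, SE 0.40, adjusted p = 0.0283), among them. In condition 5 against condition 2, the other reading of cpd D against 3 h GLT, 0 of the 20 passed (median -0.22). Summed stellate cell markers stood at 334 to 463 CPM in condition 5 and 1070 to 1488 CPM in condition 3, and their part in this was not tested.

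Of 9 other progenitor and dedifferentiation genes tested, 0 passed with cpd D at 24 h, and Myc, which encodes a transcription factor of cell growth, was the 1 that rose in 24 h GLT against 3 h control. It averaged 15.9 ± 7.70 CPM in 24 h GLT, against 4.98 ± 2.33 CPM in 3 h control (1.65, SE 0.27, adjusted p = 0.00245). Sox4, an islet progenitor factor gene, fell there (-0.73, SE 0.20, adjusted p = 0.0402). Of 18 beta cell identity genes tested, 3 rose and 0 fell with cpd D at 24 h (median 0.28), where 1.96% of all genes rose. With 24 h GLT against 3 h control 0 rose and 6 fell (median -0.45), where 4.12% of all genes fell, Iapp, the amylin gene (-1.57, SE 0.19, adjusted p = 0.000398), and Trpm5, a cation channel gene (-1.60, SE 0.35, adjusted p = 0.0125), among them. Iapp was not among the 3 that rose with cpd D. It averaged 3458 CPM in 24 h GLT with cpd D, against 4732 CPM in 24 h GLT, and the ranges overlapped.

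The genes varied in groups across the 21 libraries. With the mean of each preparation removed, log2 CPM of Cd24 and Ldha correlated at r = 0.934 (rho = 0.936), of Hk1 and Oat at r = 0.833 (rho = 0.853) and of Hk2 and Slc16a1 at r = 0.701 (rho = 0.738). Cd24 and Hk1 ran opposite (r = -0.713, rho = -0.749). Of 8713 genes above a mean of 5 CPM, the nearest to Ldha were the glycolysis genes Pgk1 (r = 0.963, rho = 0.957) and Pgam1 (r = 0.958, rho = 0.923). The nearest to Cd24 were Adm, the adrenomedullin gene (r = 0.965, rho = 0.940), and Ndrg4 (r = 0.960, rho = 0.978). Those nearest to Hk1 were Eln, the elastin gene, and Cxcr4, a chemokine receptor gene (r = 0.961 each), and to Oat Pdlim1 (r = 0.920) and Pcna, the replication clamp gene (r = 0.914). These are descriptions over libraries that share preparations, scaling and the conditions themselves, with no test.

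**Figure D4:**
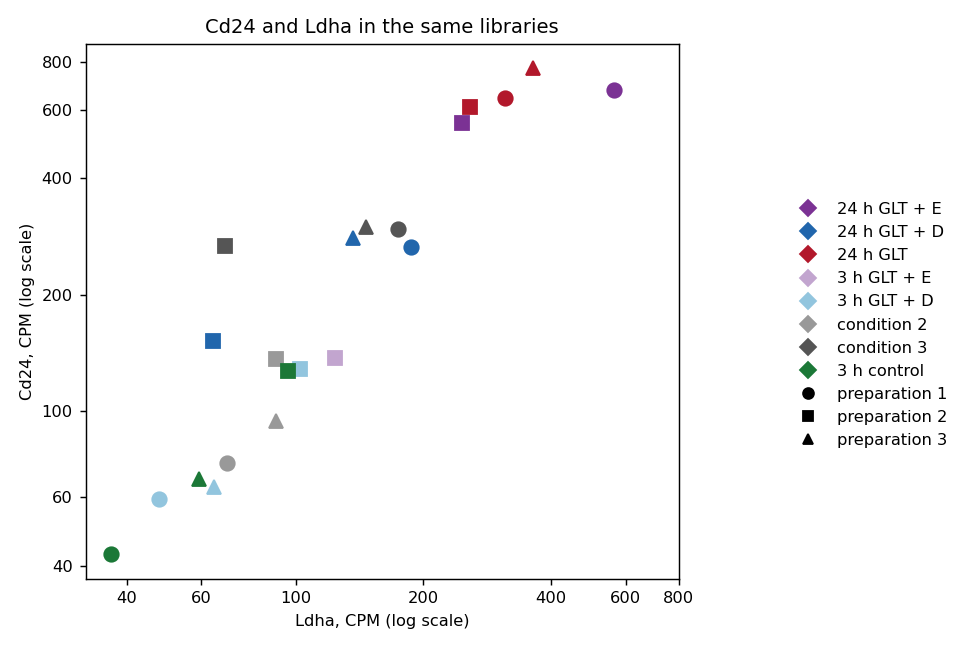
Cd24 CPM against Ldha CPM in the 21 libraries, on log axes, with a colour for each condition and a shape for each preparation. The 3 h groups and condition 2 lie at the low end and 24 h GLT with and without cpd E at the high end, with 24 h GLT with cpd D and condition 3 between them in Cd24 (r = 0.934 with preparation means removed).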

How the data were processed

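RNA from rat islets (about 1000 islet equivalents per sample) was sequenced. Per the labels' protocols, the authors aligned the 100 bp read pairs against rn5 (TopHat2 2.0.3, Bowtie2 2.0.0) and summarised them per gene with HTSeq. The strand setting and annotation are not given in the sources used here. The deposited values are raw counts per gene, not normalized. The table also has 5 entries that name no gene, which entered neither the library sizes nor the tests. They held 10.3% to 18.7% of a column as reads outside genes, 4.92% to 23.4% as reads aligned more than once, and 0.161% to 2.32% as ambiguous reads.

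Members and gene lists were chosen with earlier results of these data known. Symbols were matched to row names, and Sox9 is not analysed here. Groups follow the sample records, and the deposited sample sheet's labels for 6 libraries were run as an alternative. The test of counts was that of edgeR 4.0.16 (R 4.3.3): TMM scaling, filterByExpr, a term per condition and per preparation over all 21 libraries, a 2-sided quasi-likelihood test and Benjamini-Hochberg adjustment over 12576 genes, with a threshold of 0.05. SEs are the log2 fold change over the root of F, and 95% intervals are the normal ones. Groups hold 1 to 3 libraries, so all groups share an estimate of spread. Preparation was kept as a block because each pool was divided over the groups. Residuals from condition means correlated at a mean of 0.221 within preparations (57 pairs, lowest -0.691). They sum to 0 in each condition, so the mean between preparations, -0.109 (114 pairs), largely follows from the first value. Replicates differed beyond counting error (lowest chi-square per degree of freedom 27.7), so none was taken as a repeat deposit. The p-values rest on the spread left among libraries once condition and preparation are fitted, estimated over all groups together.

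All members are described. From each list up to 4 genes that passed in a comparison were eligible by smallest adjusted p, or up to 2 by level where none passed, and not all of these are named. Likeness between genes is a correlation of log2(CPM + 0.5) with preparation means removed. Alternatives were no block, DESeq2 1.42.0 and its size factors, library size only, no filter, a term for ambiguous reads, only the groups compared, and leaving out each library and each preparation. The scripts were tested on simulated data. Promoter sequences are RefSeq's for GRCr8, and no coordinates of rn5 were used. The result of 1 listed gene is not reported here.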

Additional observations from a re-analysis of the deposited data

Results flagged for a closer look

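The single library of 3 h GLT with cpd E (preparation 2) entered no comparison, having no replicate. In it, 6 of the 9 genes lay above all 3 of the 3 h control libraries. The share of all genes that did so was not counted, so the 6 cannot be read as particular to this set. Ldha had 124 CPM, against 36.7 to 95.9 CPM in 3 h control. Slc16a1 had 8.41 CPM, against 3.01 to 4.09 CPM. Hk2 had 8.61 CPM, against 3.30 to 5.58 CPM, and Acot7 had 20.9 CPM, against 9.67 to 17.5 CPM. Oat had 30.8 CPM, against 19.9 to 23.2 CPM. Cd24 had 137 CPM, against 42.7 to 127 CPM. Hk1, Rest and Aldh1a3 were not above the controls.

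Within preparation 2, the same library stood above 3 h GLT with cpd D in all 9 genes. The ratio was largest in Hk2 (8.61 and 2.18 CPM) and Slc16a1 (8.41 and 3.18 CPM) and smallest in Cd24 (137 and 129 CPM). Rest (20 and 13 counts) and Aldh1a3 (2 and 1) rested on few counts, and the share of all genes that stood higher was not counted. Condition 2 of that preparation had 5.08 CPM of Hk2 and 9.49 CPM of Slc16a1. The cpd E library had an insulin share of 39.7% and a TMM factor of 0.810. With 1 library there is no replicate check and no test.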

How the results depend on the processing

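No called difference reversed; uncalled values near 0, such as Ldha with cpd E against 24 h GLT, could change sign. Over 2089 alternative values of single genes, 1760 kept the call, or stayed uncalled within 1 SE of the main value whatever their sign. Of the rest, 135 lost a call, 46 gained one and 148 stayed uncalled but moved beyond 1 SE. Among values called in either fit, 0 changed sign. The counts below are of members past the test, and the cause of each change was not tested. Without the block for preparation, the count for 24 h GLT with cpd D against 24 h GLT was 1 in place of 2, for condition 4 against condition 3 it was 0 in place of 1, for condition 3 against condition 1 it was 0 in place of 1, and for condition 6 against condition 2 it was 2 in place of 4. With library size only, the counts were 0 in place of 2 for cpd D against 24 h GLT, 1 in place of 2 for cpd D at 24 h against 3 h, 2 in place of 4 for condition 4 against condition 2 (both higher), 0 in place of 1 for condition 4 against condition 3 and for condition 3 against condition 1, 2 in place of 1 for condition 5 against condition 3, and 2 in place of 4 for condition 6 against condition 2. That scaling moved the median of all genes by -0.36 (cpd E against 24 h GLT), -0.39 (cpd E against cpd D), -0.29 (condition 2 against 1), 0.24 (condition 4 against 2), -0.14 (condition 3 against 1), 0.15 (condition 5 against 3), 0.38 (the difference of GLT effects) and 0.25 (condition 6 against 2).

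No filter gave 1 in place of 2 for cpd D against 24 h GLT. A term for ambiguous reads gave 0 in place of 2 there, and 0 in place of 1 for condition 4 against 3 and for condition 3 against 1. For condition 5 against 3 it left the count at 1, with Oat passing and not Cd24. DESeq2 gave 3 in place of 0 for cpd E against cpd D, 3 in place of 1 for condition 4 against 3, 1 in place of 0 for condition 2 against 1 and 2 in place of 1 for condition 5 against 3, where edgeR with DESeq2's size factors also gave 2. A fit of only the groups compared gave 0 in place of 1 for condition 3 against 1 and condition 5 against 3, 1 in place of 0 for condition 2 against 1, and 1 in place of 4 for condition 6 against 2. With the sheet's labels, 24 h GLT against 24 h control gave 1 in place of 4, 24 h GLT against 3 h GLT 4 in place of 1, 3 h GLT against 3 h control 0 in place of 1, 24 h control against 3 h control 1 in place of 0, and 3 h GLT with cpd D against 3 h GLT 0 in place of 1.

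Leaving out 1 library or preparation, the counts ran from 0 to 2 for cpd D against 24 h GLT, 0 to 2 for cpd E against 24 h GLT, 0 to 4 for cpd E against cpd D, 0 to 3 for cpd D at 24 h against 3 h, 0 to 0 for 3 h GLT with cpd D against 3 h control, 0 to 3 for condition 4 against 2, against 3 and against 1, 0 to 2 for condition 3 against 1 and condition 5 against 3, 0 to 1 for condition 2 against 1, 0 to 0 for the difference of GLT effects and for condition 6 against 3, and 1 to 4 for condition 6 against 2.

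Counts over all genes moved too. For cpd D against 24 h GLT, 513 became 220 without the block, 215 with library size only, 278 with only the groups compared and 895 by DESeq2. For cpd E against cpd D, 378 became 149, 236, 0 and 839, and 110 with the term for ambiguous reads. For cpd D at 24 h against 3 h, 769 became 382, 240, 1928 and 1307. For 24 h GLT against 3 h control, 1039 became 600, 509, 604 and 1598. For condition 4 against 3, 751 became 305, 292, 358 and 1272, and for condition 4 against 2, 1072 became 604, 633, 3293 and 1570. For condition 3 against 1, 87 became 17, 32, 0 and 378, and for condition 5 against 3, 872 became 426, 353, 0 and 1419. For condition 2 against 1, 290 became 169, 67, 429 and 587. With 3 h GLT with cpd D against 3 h control, 13 became 10, 5, 9 and 110, and with the difference of GLT effects 9 became 3, 5, 5 and 113. For condition 6 against 3, 90 became 19, 23, 0 and 372, and against 2, 1576 became 1035, 1302, 729 and 2115. Depth limits Aldh1a3 (99 counts in all) and Rest (9 to 115 counts per library).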
